A study of Ovis aries with 18 samples.

Results

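In the pars tuberalis (PT) of sheep, 95 genes stood apart after 22 weeks on long photoperiod (LP22): 49 were higher in every LP22 animal than in all 11 other animals, and 46 were lower. These genes were picked from 12015 that reached a mean of at least 5 CPM (read counts per 1000000 counts in genes, scaled by edgeR's TMM method), out of 25197 in the files. A gene counted as a member if its 4 LP22 values all lay on one side of all the others. Genes in which every long photoperiod (LP) animal lay on one side of every short photoperiod (SP) animal were left out, which removed 4 higher and 10 lower genes. A further pair of genes was set aside by name, of which 1 otherwise met the rule, in the lower direction. Because LP22 values chose the members, no comparison that holds LP22 is tested here, and those values are a description.

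RNA came from the PT of neutered male Scottish Blackface sheep on 4 weeks of SP (SP4), 16 weeks of SP (SP16), 4 weeks of LP (LP4) or 22 weeks of LP. The 18 libraries are labelled as 4 samples a group, with repeat libraries for SP4 sample 1 and LP4 sample 2. Each sample is taken as 1 animal. Here both libraries of SP4 animal 1 were summed, LP4 animal 2 was taken from its repeat library, and LP4 animal 3 was left out, so 15 animals were used, 3 of them from LP4. Photoperiod groups share breed, sex and castration, and the prolonged exposures differ in length (16 weeks on SP, 22 on LP). Between LP22 and either SP group, day length and time of exposure thus cannot be told apart. LP22 and LP4 share day length, and there time of exposure cannot be told apart from any difference in age or sampling date. Ages and sampling dates are not given in the labels.

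The PT is the part of the pituitary wrapped around its stalk, rich in melatonin receptors. Its specialized thyrotroph cells read the length of the night from melatonin and release thyrotropin on long days, which acts on neighbouring cells of the hypothalamus to raise local thyroid hormone and set summer physiology. After many weeks on constant long days, sheep become refractory and drift back toward a winter state. How far the LP22 animals had gone in this drift is not given in the labels. Tissue was sequenced in bulk, so fewer cells of a type and less RNA per cell cannot be told apart. The files list Ensembl IDs with no gene names, and 0 of them matched the reference table of gene symbols used here. Genes therefore carry only their IDs, and the tissue label was not checked against PT marker genes.

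Depth and library make-up of the LP22 animals lay mostly within those of the others. Gene counts ran from 1746861 to 2824849 per LP22 animal and from 1936181 to 5850281 per other animal. The share of reads not aligned ran from 50.9% to 63.0% in the 4 LP22 libraries and from 50.3% to 63.6% in 12 others, and was highest within LP22 in animal 4. The libraries set aside, which are that of LP4 animal 3 and the earlier one of LP4 animal 2, placed 52.6% and 31.0% of aligned reads in genes, against 15.3% to 21.3% in the other 16. The repeat library of LP4 animal 2 remained in use, with a TMM factor of 0.633 against 0.965 to 1.08 in the other 14 animals.

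Most members were shifted by less than 2-fold. The 49 higher genes stood at a median of 1.49-fold the mean of the other animals, with a range of 1.12 to 3.23, and 6 of them exceeded 2-fold. The 46 lower genes were a median of 1.53-fold below the other animals, with a range of 1.14 to 5.25, and 8 exceeded 2-fold. The median log2 ratio over the higher genes was 0.55, 0.51, 0.45 and 0.54 in LP22 animals 1 to 4, and over the lower genes it was −0.53, −0.61, −0.50 and −0.58. That all 4 animals lie on one side in every gene is set by the rule. Animal 3 was the one nearest the other groups in 18 of the higher and 19 of the lower genes.

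**Figure D1:**
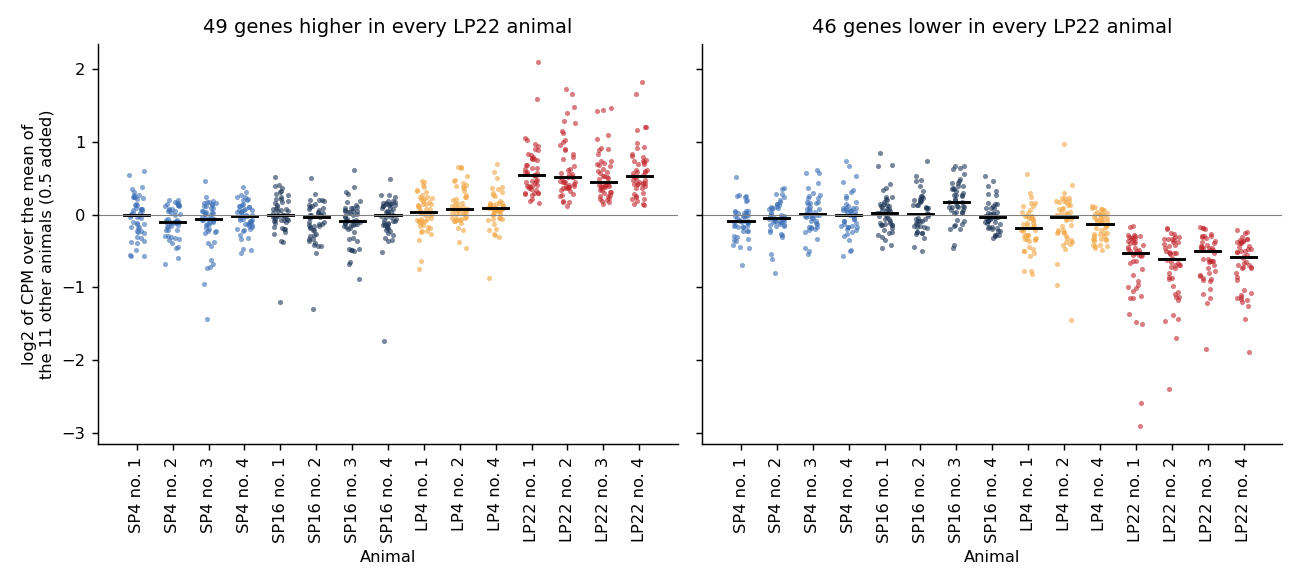
Each point is 1 gene in 1 animal, as the log2 ratio of its CPM to the mean of the 11 other animals (0.5 CPM added to both), for the 49 higher genes (left) and the 46 lower genes (right), coloured by group, with black bars at the medians. The LP22 medians lie between 0.45 and 0.55 on the left and between −0.61 and −0.50 on the right, while those of the other animals lie between −0.19 and 0.17.

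The separation itself was narrow. Between the LP22 animal and the other animal that lay closest to each other, the median log2 distance was 0.07 in the higher genes and 0.05 in the lower genes. The distance exceeded 1.2-fold in 4 genes of each direction. In 0 of the 95 genes did the 95% exact Poisson intervals of these 2 closest animals stay apart. Intervals can overlap where a test of the pair would find a difference, and no such test was run. They cover counting error only, and the closest other animal had a median of 78 counts in the higher genes and 48.5 in the lower genes.

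Genes just outside the rule looked much like those just inside. The narrowest members had a log2 distance of 0.0003 in the higher direction and 0.0006 in the lower, and the nearest gene that missed in the higher direction overlapped by 0.0002. Within a log2 overlap of 0.05, 54 further genes missed in the higher direction and 38 in the lower, while 19 higher and 23 lower members had a distance under 0.05. At the expression floor, the lowest members stood at 5.12 and 5.14 CPM (higher) and 5.38 and 5.60 CPM (lower). Below it, down to 1 CPM, the nearest excluded genes stood at 4.04 CPM in the higher direction, and at 4.87 and 4.78 CPM in the lower.

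**Figure D2:**
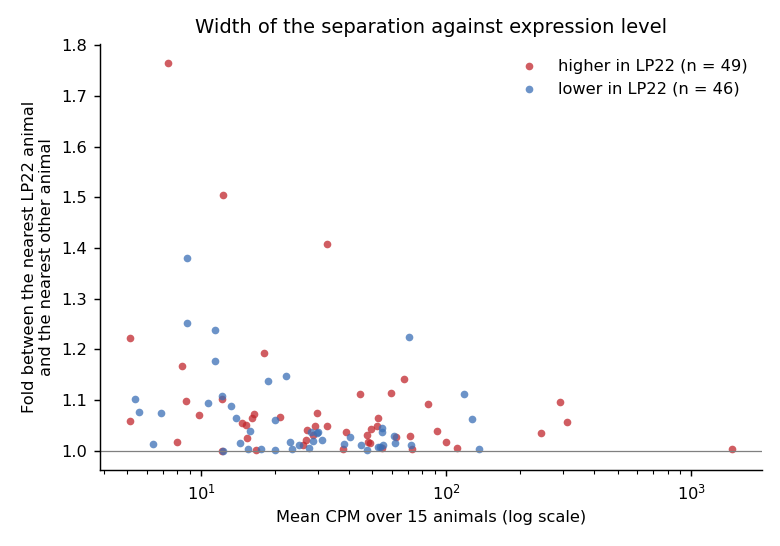
Fold between the LP22 animal and the other animal that lie closest to each other (1 marks no distance), against the mean CPM over 15 animals on a log axis, with 1 point per gene for 49 higher (red) and 46 lower (blue) genes. Distances over 1.2-fold are seen in 8 genes, and most points lie just above 1.

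Members were spread over the range of expression. The higher genes had a median of 32.6 CPM over all animals, with a range of 5.12 to 1471 CPM, and the lower genes a median of 24.3 CPM, with a range of 5.38 to 136 CPM. All 12015 genes had a median of 20.9 CPM. Below 20 CPM lay 17 of the 49 higher and 19 of the 46 lower genes, against 48.3% of all genes. The median coefficient of variation within LP22 was 9.11% in the higher and 10.7% in the lower genes, against 16.0% over all genes. Within the 3 other groups, the median was 13.9% in the higher and 15.8% in the lower genes, against 17.8% over all genes. The rule favours genes that vary little, both within LP22 and among the other animals, and members were less often weakly expressed, so nothing is read from these values.

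The gene with the widest separation was ENSOARG00000016768. It stood at 14.9, 13.7, 13.3 and 17.6 CPM in LP22 animals 1 to 4, and at 6.53, 7.54 and 7.14 CPM in LP4 animals 1, 2 and 4. On SP it stood at 4.53, 3.88, 7.27 and 1.02 CPM in SP16 animals 1 to 4 and at 3.39, 2.89, 1.39 and 4.97 CPM in SP4 animals 1 to 4. All LP22 values thus lay above 13 CPM and all others below 8 CPM. The LP4 values lay between those of LP22 and most SP animals, with SP16 animal 3 inside the LP4 range. The mean was 14.9 ± 1.94 CPM in LP22 (SD, n = 4), 3.23-fold that of the other animals. The gene was weakly expressed, with 2 to 21 counts in the 11 other animals and 24 to 40 in LP22.

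ENSOARG00000003312 was the second of the higher genes. Its level was 35.5, 19.9, 22.2 and 18.9 CPM in LP22 animals 1 to 4, and 9.39, 12.6 and 10.5 CPM in LP4 animals 1, 2 and 4. In SP4 animals 1 to 4 it was 12.3, 7.42, 8.79 and 7.22 CPM, and in SP16 animals 1 to 4 it was 3.17, 2.91, 5.54 and 7.17 CPM. LP22 animal 1 lay well above the other LP22 animals, and SP16 held the lowest values, all below the SP4 range. The LP22 mean was 24.1 ± 7.68 CPM (SD, n = 4), 3.05-fold that of the other animals.

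Among the lower genes, ENSOARG00000013890 had the widest separation. In LP22 animals 1 to 4 it stood at 1.44, 1.71, 2.73 and 2.64 CPM, from 3, 3, 8 and 6 counts. In LP4 animals 1, 2 and 4 it stood at 7.35, 3.77 and 9.23 CPM, in SP16 animals 1 to 4 at 18.1, 15.5, 12.1 and 10.2 CPM, and in SP4 animals 1 to 4 at 11.6, 6.19, 9.72 and 19.0 CPM. All 3 LP4 animals lay below all SP16 animals, and their range overlapped SP4 only in SP4 animal 2. The LP22 mean of 2.13 ± 0.651 CPM (SD, n = 4) was 5.25-fold below that of the other animals, the largest fold of any member in either direction.

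ENSOARG00000004967, the second of the lower genes, had a different order of groups. It stood at 5.27, 2.85, 4.43 and 4.40 CPM in LP22 animals 1 to 4 and at 7.49, 6.60, 7.41 and 7.22 CPM in SP4 animals 1 to 4. LP4 animals 1, 2 and 4 held 10.6, 11.7 and 7.97 CPM, and SP16 animals 1 to 4 held 19.0, 12.1, 14.2 and 9.73 CPM. Here SP4 lay next to LP22, and SP16 highest. The LP22 mean was 4.24 ± 1.01 CPM (SD, n = 4), 2.45-fold below that of the other animals.

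**Figure D3:**
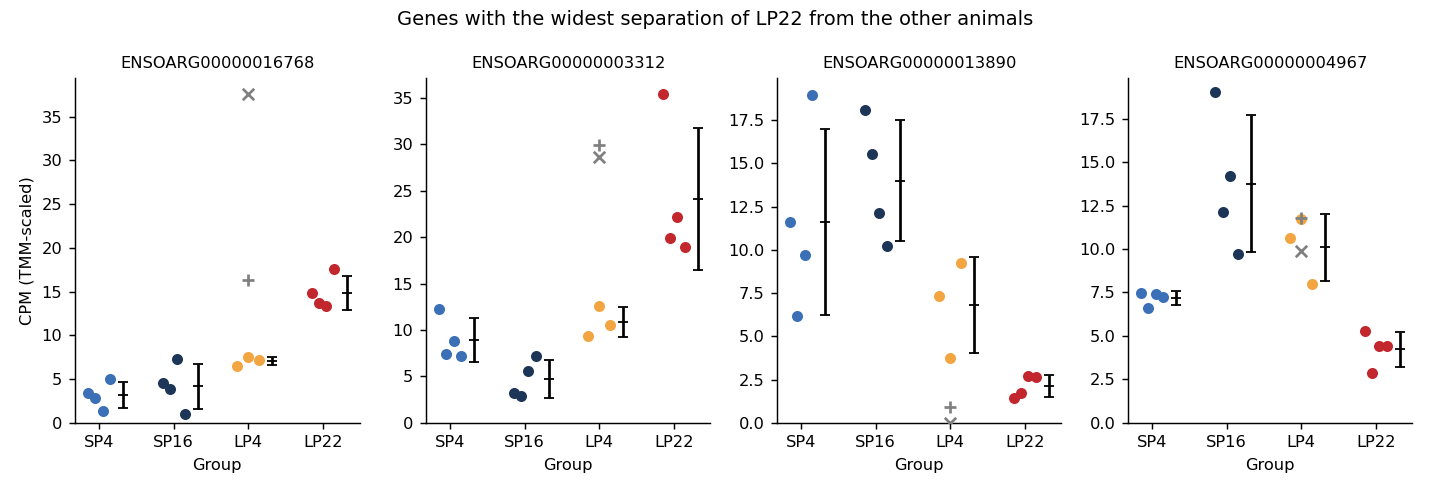
CPM of the 2 higher (left pair) and 2 lower (right pair) genes with the widest separation, 1 filled point per animal by group, with the group mean and SD as black bars; a cross marks the set-aside library of LP4 animal 3 and a plus sign the earlier library of LP4 animal 2. In ENSOARG00000016768, ENSOARG00000003312 and ENSOARG00000013890 both marks lie within or beyond the LP22 range, and in ENSOARG00000004967 they lie with LP4.

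The libraries that the rule did not use were set beside LP22 in the same way. That of LP4 animal 2 is from an animal already in use through its repeat library. In the library of LP4 animal 3, 34 of the 49 higher genes (69.4%) and 34 of the 46 lower genes (73.9%) fell short of all 4 LP22 animals, and the other 15 and 12 lay within or beyond the LP22 range. Its median log2 ratio to the animals outside LP22 was −0.65 over the higher genes and 0.58 over the lower, opposite to LP22, against −0.18 over all 12015 genes. In the earlier library of LP4 animal 2, 32 higher and 36 lower genes fell short of LP22, and the median log2 ratio was −0.16 over the higher and 0.20 over the lower genes, also opposite to LP22, against −0.05 over all genes. How often genes at large fell short of LP22 in these libraries was not counted, so nothing is read from the counts of members that did. Of the 4 genes described above, the libraries set aside lay short of all LP22 animals only in ENSOARG00000004967. ENSOARG00000016768 stood at 37.6 CPM in LP4 animal 3 and at 16.3 CPM in the earlier library of LP4 animal 2, and ENSOARG00000003312 at 28.6 and 30.0 CPM. ENSOARG00000013890 had 0 counts in LP4 animal 3, which allows up to 3 counts, and 0.908 CPM in the earlier library of LP4 animal 2, below LP22. ENSOARG00000004967 stood at 9.87 and 11.8 CPM, above all LP22 animals. With all 16 animals and every library summed, 54 genes were higher and 72 lower in LP22, of which 32 and 34 were among the 49 and 46.

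Taken singly, the libraries of SP4 animal 1 also crossed the line in some genes. Its first library reached the LP22 range in 6 higher and 9 lower genes, and its repeat library in 3 and 6. The share over all genes was not counted here either.

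The same rule was applied to the other groups with 4 animals. The LP22 members were 0.408% (higher) and 0.383% (lower) of the 12015 genes. SP16 stood beyond all other animals in 64 genes (0.533%) in the higher and 50 (0.416%) in the lower direction, and SP4 in 45 (0.375%) and 34 (0.283%). LP22, with 95 genes, thus lay between SP16, with 114, and SP4, with 79. The median log2 distance was 0.07 in the higher and 0.05 in the lower direction for LP22, 0.05 and 0.04 for SP16 and 0.05 and 0.06 for SP4. The widest log2 distance in the higher direction was 0.82 in LP22, 0.45 in SP16 and 0.20 in SP4, and in the lower direction it was 0.47, 0.48 and 0.32. These counts are descriptions and their differences were not tested.

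Whether members already differed among the other groups was asked in comparisons that hold no LP22 animal. They were tested with edgeR's quasi-likelihood test, with Benjamini-Hochberg adjustment over 13446 genes and a false discovery rate (FDR) threshold of 0.05. The rule had already left out genes in which all LP4 and LP22 animals separate from SP, which bears on the comparisons with LP4. LP4 against SP4 asked for the early response to LP. It called 1.93% of the 12015 genes at the expression floor and 0 of the 95 members. DESeq2 called 259 of the 13446 genes and also 0 members. By edgeR's test, 10 of the higher (20.4%) and 11 of the lower genes (23.9%) had an unadjusted p under 0.05, against 14.8% of the 12015 genes. The lowest FDR was 0.0863 in the higher and 0.0938 in the lower genes. Of the genes left out as separating LP from SP, 2 of 4 higher and 3 of 10 lower genes were called. Those genes were chosen in part by their LP4 and SP4 values, so nothing is read from these counts.

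In the 3 LP4 animals used, LP4 means lay more often on the LP22 side than those of all genes did. LP4 was above SP4 in 39 of the 49 higher genes (79.6%), with a median log2 fold change of 0.09, against 50.5% and a median of 0.00 over the 12015 genes. It was below SP4 in 31 of the 46 lower genes, with a median of −0.11. The mean of LP4 lay beyond both SP means on the LP22 side in 32 of the higher genes (65.3%) and 31 of the lower genes (67.4%), where 35.9% and 35.3% of all genes had LP4 above or below both. LP4 animals 1, 2 and 4 lay above the mean of the 11 animals in 27, 35 and 37 of the higher genes, against 16 to 25 in the SP animals. They lay below it in 36, 26 and 35 of the lower genes, against 9 to 32 in the SP animals, so animal 2 was not set apart from SP in the lower genes. The set-aside LP4 libraries ran the opposite way in both directions, with the medians given above. Genes are not independent replicates, so no test is given over the list. The counts per animal were not made over all genes, so they do not show whether these animals differ in the members only.

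For the 4 genes described above, LP4 against SP4 gave log2 fold changes of 1.13 ± 0.39 (SE; FDR 0.168) for ENSOARG00000016768 and 0.21 ± 0.29 (FDR 0.820) for ENSOARG00000003312. It gave −0.76 ± 0.35 (FDR 0.323) for ENSOARG00000013890 and 0.48 ± 0.24 (FDR 0.389) for ENSOARG00000004967, by edgeR's quasi-likelihood test. The last pointed away from its fall in LP22, and none passed the threshold.

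SP16 against SP4 asked whether members moved with time on SP. It called 1 gene of the 12015 (0.00832%) and 0 members. DESeq2 called 36 of the 13446 genes and likewise 0 members. By edgeR's test, 6 of the higher (12.2%) and 9 of the lower genes (19.6%) had an unadjusted p under 0.05, against 10.9% of the 12015 genes. SP16 was above SP4 in 30 of the 46 lower genes (65.2%; median log2 fold change 0.05) and in 28 of the 49 higher genes (57.1%; median 0.03), against 49.6% of the 12015 genes. In the lower genes SP16 animal 3 stood above the mean of the 11 animals in 37 genes, and SP16 animals 1, 2 and 4 in 24, 24 and 18. The share over all genes was not counted for these animals. ENSOARG00000004967 had the largest difference of the lower genes, 0.94 ± 0.22 on the log2 scale (SE; edgeR FDR 0.132). ENSOARG00000003312 had the largest fall of the higher genes, of −0.98 ± 0.31 (FDR 0.235), and neither passed.

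LP4 against SP16 set early LP beside prolonged SP. It called 1.95% of the 12015 genes and 2 of the 95 members, 1 in each direction. The higher gene ranked 7 by separation and stood at 67.4, 67.4 and 70.9 CPM in LP4 animals 1, 2 and 4 and at 48.0, 44.2, 40.9 and 44.6 CPM in SP16 animals 1 to 4, with 84.9 to 101 CPM in LP22. The log2 difference was 0.63 ± 0.13 (SE; edgeR FDR 0.0164). In SP4 animals 1 to 4 it stood at 74.4, 49.1, 64.8 and 53.7 CPM, which overlapped LP4 and lay above all SP16 animals. The lower gene ranked 8, at 124, 103 and 102 CPM in LP4 and 142, 150, 190 and 137 CPM in SP16, against 81.0 to 92.1 CPM in LP22. The log2 difference was −0.50 ± 0.11 (SE; edgeR FDR 0.0283). Its SP4 values, of 114 to 122 CPM, lay inside the LP4 range and below all SP16 animals. In both genes SP16 was thus the group apart from SP4 and LP4, although SP16 against SP4 did not pass in either (edgeR FDR 0.157 and 0.141). The number of members called was 1 with the replicate number as a block, with these 2 groups fitted alone, or without LP4 animal 4, SP16 animal 2 or SP16 animal 3, and 0 with all 16 animals. Without a threshold, LP4 lay above SP16 in 36 of the 49 higher genes (73.5%; median log2 fold change 0.09). It lay below SP16 in 40 of the 46 lower genes (median −0.22). Over the 12015 genes, LP4 lay above SP16 in 50.1%, with a median of 0.00.

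**Figure D4:**
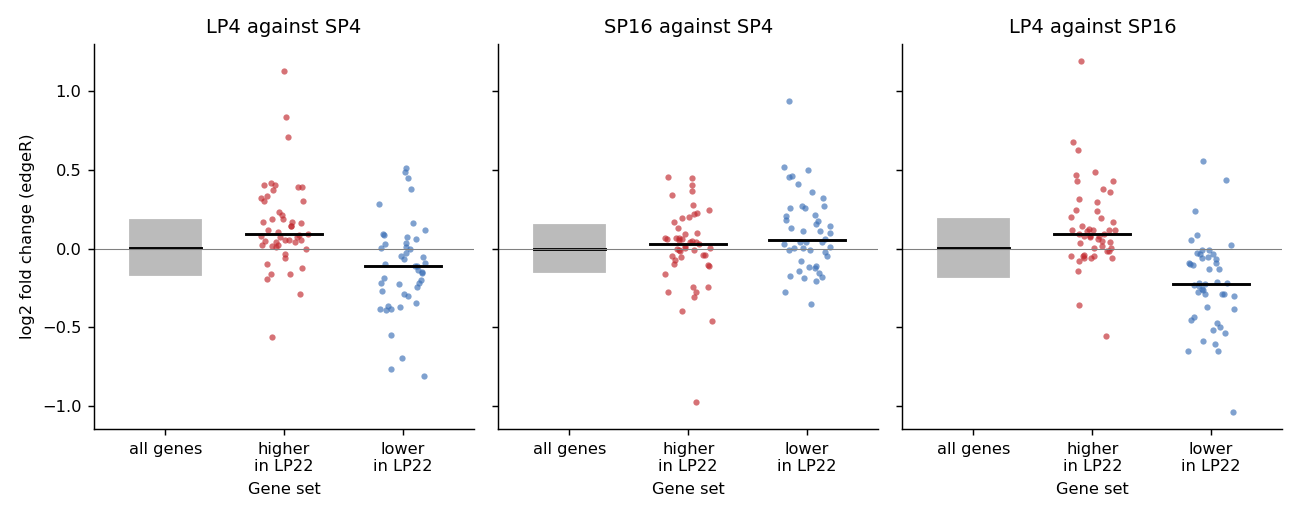
Log2 fold changes in the 3 comparisons without LP22. Points are single genes of the 49 higher (red) and 46 lower (blue) genes with black bars at their medians, and grey boxes span the interquartile range of the 12015 genes. The lower genes have medians of −0.11, 0.05 and −0.22 from left to right, and the higher genes 0.09, 0.03 and 0.09.

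In 34 of the 49 higher genes (69.4%) and 25 of the 46 lower genes (54.3%), none of the 3 comparisons had an unadjusted p under 0.05, against 72.3% of all 12015 genes. The share in the higher genes was near that of all genes, and the share in the lower genes was below it. A p above that level does not show that the 3 groups were alike. In the remaining 15 higher and 21 lower genes at least 1 of the comparisons fell under it. The other animal that came closest to LP22 was an LP4 animal in 21 of the higher and 25 of the lower genes. LP4 held 3 of the 11 animals. How often an LP4 animal was the extreme one of the 11 over all genes was not counted, so nothing is read from these counts. LP4 animal 2, whose library make-up stood apart, was closest in 13 and 11 genes, more than any other animal in the higher genes and as many as LP4 animal 1 in the lower. The part of its make-up in these counts was not tested; without it, 68 genes were higher and 74 lower in LP22.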

How the data were processed

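The authors aligned reads with Bowtie to Oar_v3.1 and counted them per gene with HTSeq, per the labels, and deposited 1 table of unnormalized counts for each library. Versions, strand setting and feature type are not given in the sources used here. Groups, animal numbers and repeats came from the sample titles; that the 4 samples of a group are separate animals follows the study's description, and otherwise p-values measure only the spread between samples. HTSeq summary lines were left out of library sizes; reads in no feature took 78.6% to 84.5% of aligned reads in the 16 libraries not set aside.

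Genes were filtered with filterByExpr (minimum count 10, total 15), scaled by TMM and tested with glmQLFit and glmQLFTest of edgeR 4.0.16 in R 4.3.3, all 4 groups in 1 fit. The scripts were tested on simulated data. Libraries set aside were scaled with the 15 animals, 1 library at a time. DESeq2 1.42.0 was an alternative. Genes named are the 2 of each direction with the widest separation, since the IDs carry no names; the genes ranked 7 and 8 were described because they passed a test. Members and tests were chosen with earlier results of these data known. Figures were drawn with matplotlib 3.10.9.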

Additional observations from a re-analysis of the deposited data

Results flagged for a closer look

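Signal above the level of all SP animals was found in libraries that the comparisons do not use, for both higher genes with the widest separation. ENSOARG00000016768 stood at 37.6 CPM in the library of LP4 animal 3 (156 counts) and at 16.3 CPM in the earlier library of LP4 animal 2 (18 counts), where the highest SP animal had 7.27 CPM. ENSOARG00000003312 stood at 28.6 CPM (119 counts) and 30.0 CPM (33 counts) in the same libraries, where the highest SP animal had 12.3 CPM. Both libraries differ from all others in the share of aligned reads in genes, as given above, and the part of this in the values was not tested. By Dixon's ratio of the gap to the range, at the 95% level, 0 of the 12 groups of 4 animals examined over the 4 genes held an outlying animal, LP22 animal 1 in ENSOARG00000003312 included.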

How the results depend on the processing

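RLE and upper-quartile scaling, no filter on low counts, a floor of 1 or 10 CPM and either library of SP4 animal 1 alone gave 42 to 55 higher and 40 to 50 lower genes. Under these settings, 42 to 49 of the 49 and 36 to 46 of the 46 genes were found again. With the first library of SP4 animal 1 alone these were 42 and 36. With all 16 animals 72 genes were lower. Leaving out 1 animal gave 53 to 128 higher and 49 to 110 lower genes, since fewer animals set fewer limits; of the 49 and 46 genes, 44 to 49 and 39 to 46 were found again. The count moved by over 1.5 times without LP22 animals 1, 2, 3 or 4 (100, 77, 128 and 95 higher, 88, 89, 110 and 99 lower) and without LP4 animal 2 (74 lower). The log2 ratio of ENSOARG00000016768, 1.69, moved to 0.96 with all 16 animals, which was added for the named genes only once the data had been seen. RLE and upper-quartile scaling and leaving out 1 animal moved the ratio of none of the 4 genes by more than 1 SD. With a floor of 10 CPM, or with all 16 animals, 1 of the 4 was still a member, and 3 were without SP4 animal 1, SP4 animal 2 or SP16 animal 3. Without that SP animal, all LP animals lay on one side of all SP animals in 1 gene, which the rule leaves out. Without SP4 animal 1 it was ENSOARG00000003312 (LP from 9.39, other SP up to 8.79 CPM). Without SP4 animal 2 it was ENSOARG00000013890 (LP up to 9.23, other SP from 9.72 CPM). Without SP16 animal 3 it was ENSOARG00000016768 (LP from 6.53, other SP up to 4.97 CPM).

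LP4 against SP4 called 241 of 13446 genes, and 27 with all 16 animals, 158 with the replicate block, 96 with the 2 groups alone and 133 to 277 without 1 animal (133 without SP4 animal 2, 149 without SP4 animal 1). SP16 against SP4 called 1, and 0 with all 16 animals, 31 with no filter, 8 with the 2 groups alone, 36 by DESeq2 and 1 to 42 without 1 animal (42 without SP16 animal 3, 10 without LP4 animal 2, 6 without LP22 animal 4, 2 without SP16 animal 1 or 4). LP4 against SP16 called 240, and 23, 132 and 122 with all 16 animals, the replicate block and the 2 groups alone, and 114 to 321 without 1 animal (114, 149 and 141 without SP16 animals 2, 1 and 4, 135 without LP4 animal 2). Its members called, 2, became 0, 1 and 1 under those settings and 1 to 3 without 1 animal, and those of LP4 against SP4 were 0 to 1, with 1 without LP4 animal 2, LP4 animal 4 or SP16 animal 3. The cause of these moves was not tested. Same-numbered animals of different groups had deviations from their group means that correlated at −0.178 to 0.179 over 21 pairs, with a mean of −0.011. Animals with other numbers correlated at −0.217 to 0.280 over 63 pairs, with a mean of 0.004. Values over 0.1 were found in 4 of the 21 and 5 of the 63 pairs. The numbers were not taken to pair animals, and the difference was not tested. Counts near 10 CPM or less limit what could be seen for the genes named.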

Other observations

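Among the 11 animals outside LP22, deviations from group means on log2 CPM correlated across pairs of higher genes at a mean Pearson's r of 0.03 (1176 pairs), across pairs of lower genes at 0.07 (1035 pairs) and between higher and lower genes at −0.02 (2254 pairs), with 0.00 over all genes. The pairs share animals, libraries and scaling, and values this weak are given as a description only.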
